A study of Homo sapiens with 14 samples.

Results

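The genes described here encode 5 families of proteins that act in pre-mRNA splicing. They were taken by name from a table with 1 window of 1000 bp for each of 28159 genes. The rule took entries with a protein-coding (NM_) accession whose symbol belongs to the SRSF, SF3A or SF3B, SNRPA to SNRPG, HNRNP or U2AF families. SF3B6 was left out by the rule. This gave 54 windows, of which 9 belonged to SR proteins, 8 to SF3A and SF3B subunits, 8 to proteins of the small nuclear ribonucleoprotein particles (snRNPs), 25 to heterogeneous nuclear ribonucleoproteins (hnRNPs) and 4 to U2AF. The choice used names alone and no measured value. A further 12 windows of these families were listed under noncoding (NR_) accessions and fell outside the rule. Of these, 6 are protein-coding genes, and their mean DMSO levels were 507.7 CPM (counts relative to library size) for SRSF2, 252 for SRSF6, 153 for SRSF3, 86.1 for SNRPA1, 62.2 for SNRPC and 58.6 for SNRPE.

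Each window was read in HCT116, an established human colorectal carcinoma line labelled wild type, by ChIP-seq, in which crosslinked chromatin is immunoprecipitated and sequenced. The antibody, 3E8, recognises the C-terminal domain of RNA polymerase II when Ser5 of its repeats is phosphorylated. All cells were electroporated, either without peptide (water in its place, per the labels) or with 10 µM of a bivalent stapled peptide, with another 200 nM added to the medium of the peptide wells. Incubation for 3 h followed, in 0.1% DMSO, the solvent control, or in 10 µM Nutlin3a, a small molecule that blocks the binding of MDM2 to p53. By its title, the series asks whether a stapled peptide that blocks the binding of p53 to Mediator suppresses the p53 response. In the groups without peptide there were 2 ChIP libraries each, both peptide groups had 1 (replicate 2), and there were 2 libraries of unprecipitated input chromatin for each of the 4 conditions. Nothing in the labels says whether the replicates came from separate cultures, so p-values measure the spread between these libraries, which may be technical.

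Splicing is carried out by the spliceosome, which is built on each intron from snRNPs and many accessory proteins. U2AF binds the polypyrimidine tract and the AG at the end of the intron, and the SF3A and SF3B complexes hold the U2 snRNP at the branch point. Sm proteins form the ring at the core of most spliceosomal snRNPs. SR proteins mostly bind exonic enhancers and favour exon inclusion, and many hnRNPs oppose them or bind introns. Phosphorylation of Ser5 marks polymerase at promoters and in early transcription, so a count in these windows is a measure of polymerase at the gene and not of its mRNA.

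Facts of the whole series that touch the results are these. Total counts in windows were 1290223 to 2240951 for the ChIP libraries and 161719 to 359276 for the inputs. Levels are given as CPM scaled by TMM, a method that equalises the bulk of windows between libraries. All windows are 1000 bp long, so levels need no correction for length. They also hold background: mean input over the members ran from 5.06 CPM for HNRNPCL2 to 104 for SRSF1. An order of genes by level is therefore not an order by enrichment over input. Nutlin3a replicate 1 stood apart: it was the shallowest ChIP library, and along the first principal component, with 53.3% of the variance, it lay at -112, DMSO replicate 1 at -33 and the 4 libraries of replicate 2 at 16.2 to 46.5. The Nutlin3a label was checked on 2 p53 targets: CDKN1A was at 107 and 125 CPM in DMSO and 249 and 357 in Nutlin3a, and MDM2 at 103 and 99.99 against 170 and 193 (edgeR quasi-likelihood adjusted p = 0.109 and 0.982). Of 10 markers of colon epithelium, 4 (KRT19, KRT18, KRT8 and EPCAM, at 112 to 324 CPM in DMSO) had at least 2 times the mean input level. For markers, this sets the mean of all 6 ChIP libraries against that of the 8 inputs, both in CPM of total counts. The differentiation markers LGALS4, CDX1, KRT20 and VIL1 were at 3.49 to 8.11 CPM. Summed over the 7 blood and 5 mesenchymal markers, none of which reached 2 times input, levels were 31.4 to 65.0 and 17.4 to 49.7 CPM. Both were highest in Nutlin3a replicate 1, though the mesenchymal sum was 48.2 in DMSO with peptide. A list of 6 markers of other silent tissues summed to 22.7 to 44.8 CPM. It was highest in DMSO with peptide, and at 39.8 in Nutlin3a replicate 1.

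How the windows sit on the genes limits what they measure. Of the 54 symbols, 53 matched a RefSeq gene, and 43 windows held the gene start of the RefSeq promoter table (GRCh38.p14). Genes on the plus strand mostly had 300 bases before the start and 700 from it (14 of 16 members). For genes on the minus strand the same window reached 700 bases before the start and 300 from it (20 of 27), so less of the transcribed side was read. The windows of HNRNPH1, HNRNPF and HNRNPL lay inside the annotated gene, downstream of the tabulated start, and that of U2AF2 ended before it. The window listed for U2AF1, chr21:6498957-6499956, is far from the RefSeq gene at chr21:43092956 and shares 992 of its bases with that of U2AF1L5, a near-identical copy, so their values are close to a single measurement. HNRNPCL1 to HNRNPCL4 are near-identical copies on chromosome 1, where the windows of HNRNPCL2 and HNRNPCL3 share 639 bases. The window listed for HNRNPCL3, chr1:13116194-13117193, overlaps the RefSeq gene of HNRNPCL2 and not its own, chr1:13060769-13062878. That listed for HNRNPCL4, chr1:13061010-13062009, lies within the RefSeq gene of HNRNPCL3 and not at its own. Which copy the reads of HNRNPCL1 to HNRNPCL4 came from is uncertain. In all, 21 members (38.9%) shared bases with another window, against 22.0% of all windows. Among them, HNRNPK shares 913 bases with RMI1, HNRNPDL 636 with ENOPH1, HNRNPA1 397 with CBX5, SF3B3 739 with COG4, SF3A1 729 with CCDC157, SNRPD3 755 with GUCD1, HNRNPH2 881 with GLA and U2AF1L4 768 with PSENEN. Strand is not given for the counts, so reads of such neighbours cannot be told apart.

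Promoter sequences from RefSeq (GRCh38.p14, the same assembly as hg38) put these levels beside their DNA. Each sequence below is the 250 bases before the gene start, 5′ to 3′ on the strand of the gene. Capitals mark matches, on either strand, to GGGCGG (the GC box read by Sp factors), CCAAT (read by NF-Y), CCGGAA (a core read by ETS factors), CACGTG (the E-box), TATAAA and a pair of 10-base palindromes, the element read by BANP and the NRF1 site. The first 3 are the members with the highest levels among those whose window held the tabulated start.
HNRNPAB, chr5:178204283-178204532, plus strand: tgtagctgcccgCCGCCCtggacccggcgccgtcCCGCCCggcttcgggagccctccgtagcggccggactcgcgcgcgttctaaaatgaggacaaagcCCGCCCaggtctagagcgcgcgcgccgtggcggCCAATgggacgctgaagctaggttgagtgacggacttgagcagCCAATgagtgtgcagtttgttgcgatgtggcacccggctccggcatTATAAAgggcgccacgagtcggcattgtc
HNRNPA2B1, chr7:26200747-26200996, minus strand: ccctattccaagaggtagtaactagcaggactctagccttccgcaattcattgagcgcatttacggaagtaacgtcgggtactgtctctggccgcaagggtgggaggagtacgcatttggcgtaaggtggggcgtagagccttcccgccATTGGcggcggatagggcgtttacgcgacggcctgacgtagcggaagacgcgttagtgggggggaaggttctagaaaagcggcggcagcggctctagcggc
SRSF7, chr2:38751495-38751744, minus strand: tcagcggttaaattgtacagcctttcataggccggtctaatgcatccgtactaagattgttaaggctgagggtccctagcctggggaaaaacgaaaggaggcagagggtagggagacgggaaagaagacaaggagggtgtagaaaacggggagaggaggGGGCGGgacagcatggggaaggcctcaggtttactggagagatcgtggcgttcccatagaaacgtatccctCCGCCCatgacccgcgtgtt
The next pair differ most in base composition, and their levels go the other way: SRSF12 is the most GC-rich promoter and was nearly empty, and SRSF8 is the least GC-rich and was occupied.
SRSF12, chr6:89118072-89118321, minus strand: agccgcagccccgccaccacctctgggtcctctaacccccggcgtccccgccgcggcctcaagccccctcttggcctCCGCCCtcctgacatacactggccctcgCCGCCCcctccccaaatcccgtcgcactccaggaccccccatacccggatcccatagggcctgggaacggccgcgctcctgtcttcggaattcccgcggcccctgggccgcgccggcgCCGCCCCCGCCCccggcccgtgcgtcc
SRSF8, chr11:95066627-95066876, plus strand: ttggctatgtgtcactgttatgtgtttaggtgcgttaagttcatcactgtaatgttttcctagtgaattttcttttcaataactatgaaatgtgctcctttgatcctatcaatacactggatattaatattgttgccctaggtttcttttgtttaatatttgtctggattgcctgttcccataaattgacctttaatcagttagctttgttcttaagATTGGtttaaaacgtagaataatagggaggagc
SF3B4 had the smallest unadjusted p among members with lower levels under Nutlin3a.
SF3B4, chr1:149927804-149928053, minus strand: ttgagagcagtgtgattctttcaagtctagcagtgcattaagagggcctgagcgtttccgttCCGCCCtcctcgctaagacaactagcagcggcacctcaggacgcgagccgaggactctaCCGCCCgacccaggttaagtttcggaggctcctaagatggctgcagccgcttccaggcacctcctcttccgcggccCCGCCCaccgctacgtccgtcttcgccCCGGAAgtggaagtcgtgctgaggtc
HNRNPK and SRSF10 hold the BANP element, the capitals of 10 bases in their lines.
HNRNPK, chr9:83980616-83980865, minus strand: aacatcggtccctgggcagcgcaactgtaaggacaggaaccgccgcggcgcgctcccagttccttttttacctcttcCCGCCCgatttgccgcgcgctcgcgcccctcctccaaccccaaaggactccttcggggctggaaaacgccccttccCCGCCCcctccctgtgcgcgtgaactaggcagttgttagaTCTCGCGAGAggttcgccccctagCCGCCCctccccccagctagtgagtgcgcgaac
SRSF10, chr1:23980328-23980577, minus strand: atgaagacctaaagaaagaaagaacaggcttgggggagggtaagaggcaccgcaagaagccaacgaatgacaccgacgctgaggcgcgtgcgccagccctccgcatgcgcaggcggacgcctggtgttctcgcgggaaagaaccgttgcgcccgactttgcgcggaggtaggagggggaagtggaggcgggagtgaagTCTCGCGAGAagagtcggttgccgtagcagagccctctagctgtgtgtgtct

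Over the 43 promoters whose start lay in the window, median GC content was 61.6% (33.6% to 75.6%), against 58.0% over the 27305 promoters in the table, and the median number of CpG dinucleotides was 23 against 11. GGGCGG was found in 25 of the 43 (58.1%, against 42.3% of all promoters) and CCAAT in 18 (41.9% against 33.0%). CCGGAA was found in 15 (34.9% against 14.8%), among them SF3A1, SF3A2, SF3A3, SF3B2, SF3B4, SNRPB, SNRPB2, SNRPD2 and SNRPG. CACGTG was found in 7 (16.3% against 6.49%), TATAAA in 4 (9.30% against 11.1%: HNRNPAB, HNRNPC, HNRNPD and SRSF11), the BANP element in 2 (4.65% against 0.41%) and the NRF1 palindrome in 0 (against 1.13%). The decamer of the p53 consensus was found in HNRNPC and SRSF4, 4.65% of members against 5.53% of all, and a pair of decamers with a spacer of at most 13 bases in 0 members and 0.0293% of all promoters. No matches to different motifs shared bases in these 43. All motifs were searched on both strands, and a match describes letters in this window and not binding.

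Splicing factor windows carried high levels of Ser5-phosphorylated polymerase. Their median level in DMSO was 92.4 CPM, against 14.7 over all windows. Of the 54, 28 were in the top decile of all windows and 49 above the median. Relative to the mean of the 8 inputs, 20 of 54 (37.0%) had at least 2 times the input level, against 8.77% of all windows with input counts. Median levels were 112 CPM for hnRNPs, 101 for SR proteins, 88.6 for U2AF, 76.0 for snRNP proteins and 72.1 for SF3A and SF3B subunits. The roles overlapped: the lowest member of every role was below the lowest of these medians. The 54 windows held 0.549% and 0.519% of the counts in DMSO, 0.524% in DMSO with peptide, 0.496% and 0.474% in Nutlin3a, 0.524% in Nutlin3a with peptide, and 0.218% to 0.301% in the inputs.

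Among the SR proteins within the rule, SRSF7, a shuttling factor that also takes part in mRNA export, had the highest level. SRSF2 and SRSF6, outside the rule, were higher, with DMSO means of 507.7 and 252 CPM. SRSF7 was at 247 and 206 CPM in DMSO, 218 in DMSO with peptide, 197 and 160 in Nutlin3a and 203 in Nutlin3a with peptide. Both Nutlin3a libraries lay below both DMSO libraries, and Nutlin3a with peptide lay above both Nutlin3a libraries. Mean DMSO levels (± SD, n = 2) were 204 ± 12.2 CPM for SRSF5, 198 ± 7.21 for SRSF1, the founding member of the family, 111 ± 10.6 for SRSF4, and 101 ± 14.3 for SRSF10, a splicing repressor when dephosphorylated in heat shock. SRSF11 was at 76.1 ± 6.05, SRSF8 at 75.7 ± 12.3 and SRSF9 at 74.7 ± 3.53 CPM. SRSF12 was set apart at 4.31 ± 3.37 CPM: its values were 1.93 and 6.70 in DMSO, 6.72 in DMSO with peptide, 7.65 and 10.8 in Nutlin3a and 8.92 in Nutlin3a with peptide. Its promoter has 28 CpG dinucleotides and 4 GC boxes, and that of SRSF8 has 2 CpG dinucleotides and no GC box.

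Among hnRNPs, HNRNPH1, which binds runs of G, had the highest level of all members. It was at 316 and 289.7 CPM in DMSO, 247 in DMSO with peptide, 241 and 269 in Nutlin3a and 290.4 in Nutlin3a with peptide. Its Nutlin3a values were below those of DMSO, and the peptide library under DMSO was lower than both DMSO libraries. HNRNPAB, which shuttles between nucleus and cytoplasm, was at 226 and 261 in DMSO, 225 with peptide, 192 and 239 in Nutlin3a and 245 in Nutlin3a with peptide, so its DMSO and Nutlin3a values overlapped. HNRNPA2B1, which binds RNA near splice sites and in microRNA precursors, was at 239 and 241 in DMSO, 220.1 with peptide, 193 and 169 in Nutlin3a and 239.5 in Nutlin3a with peptide. Its level in Nutlin3a with peptide was that of the DMSO libraries, and both Nutlin3a libraries without peptide were lower. HNRNPF, another binder of G runs, followed at 216 ± 16.5 (SD, n = 2) CPM in DMSO. Next came HNRNPA3 (175 ± 40.0), HNRNPK (158 ± 2.77), which binds C-rich RNA, HNRNPA1 (153 ± 44.2), a repressor of exon inclusion, and HNRNPU (137 ± 17.8), a nuclear scaffold protein. HNRNPA0 (136 ± 17.6), HNRNPH3 (132 ± 5.76), HNRNPDL (131.5 ± 0.849), HNRNPL (118 ± 8.51), which binds CA repeats, and HNRNPD (112 ± 2.84), which binds AU-rich elements in mRNA, came next. HNRNPR was at 108 ± 9.35, HNRNPM at 105 ± 9.15, HNRNPUL2 at 98.8 ± 5.56, HNRNPUL1 at 94.4 ± 8.67 and HNRNPC, which binds U tracts, at 83.2 ± 22.9 CPM. Neighbours in this order mostly differed by less than the larger of their SDs, each from 2 libraries. HNRNPH1 and HNRNPAB differed by more than either.

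Lower levels were found for HNRNPLL (50.4 ± 1.67 CPM), which directs CD45 splicing in T cells, HNRNPA1L2 (30.1 ± 1.75), a copy of HNRNPA1, and HNRNPH2 (21.8 ± 6.73). HNRNPCL1 was at 4.17 ± 2.97 CPM and HNRNPCL4 at 3.94 ± 1.93. HNRNPCL2 was at 3.38 and 0.515 CPM in DMSO, 2.80 in DMSO with peptide, 11.5 and 3.60 in Nutlin3a and 0.446 in Nutlin3a with peptide. HNRNPCL3 was at 3.38 and 0 CPM in DMSO, 2.80 with peptide, 19.9 and 3.60 in Nutlin3a and 1.34 in Nutlin3a with peptide. A count of 0 in DMSO replicate 2 allows up to 1.55 CPM, that is 3 counts, for counting error alone. Both were highest in Nutlin3a replicate 1, the shallowest library. Blood and mesenchymal markers were also highest there, while those of other silent tissues were highest in DMSO with peptide. These 4 copies and SRSF12 are the members with a mean count below 20 over the 6 ChIP libraries, a limit set after their values were seen.

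The SF3A and SF3B windows were led by SF3B4, which sits near the branch point, at 144 ± 9.41 CPM (SD, n = 2). SF3A2 was at 94.7 ± 9.98, SF3B3 at 82.4 ± 22.5, SF3B1, the branch-point subunit that is recurrently mutated in blood cancers, at 72.3 ± 20.6, and SF3A1 at 71.9 ± 4.01. SF3A3 was at 70.7 ± 3.72, SF3B2 at 68.5 ± 8.16 and SF3B5 at 53.5 ± 1.35 CPM. Of the Sm ring, SNRPG was at 105 ± 33.1 CPM, SNRPB at 102 ± 7.88, SNRPD1 at 90.5 ± 9.13, SNRPD3 at 76.7 ± 13.7, SNRPD2 at 75.4 ± 3.14 and SNRPF at 38.2 ± 8.77. The particle-specific proteins SNRPA, of the U1 snRNP, and SNRPB2, of the U2 snRNP, were at 70.5 ± 9.36 and 44.3 ± 8.78 CPM. U2AF2, the large U2AF subunit, was at 103 ± 3.62, U2AF1L5 at 88.8 ± 3.48, U2AF1, listed as the small subunit, at 88.5 ± 3.82, and its paralog U2AF1L4 at 30.9 ± 9.46 CPM. Apart from SF3B4, the SF3A and SF3B subunits spanned 53.5 to 94.7 CPM, with many neighbours within each other's SD. The plot of levels by library shows all members in each role.

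**Figure D1:**
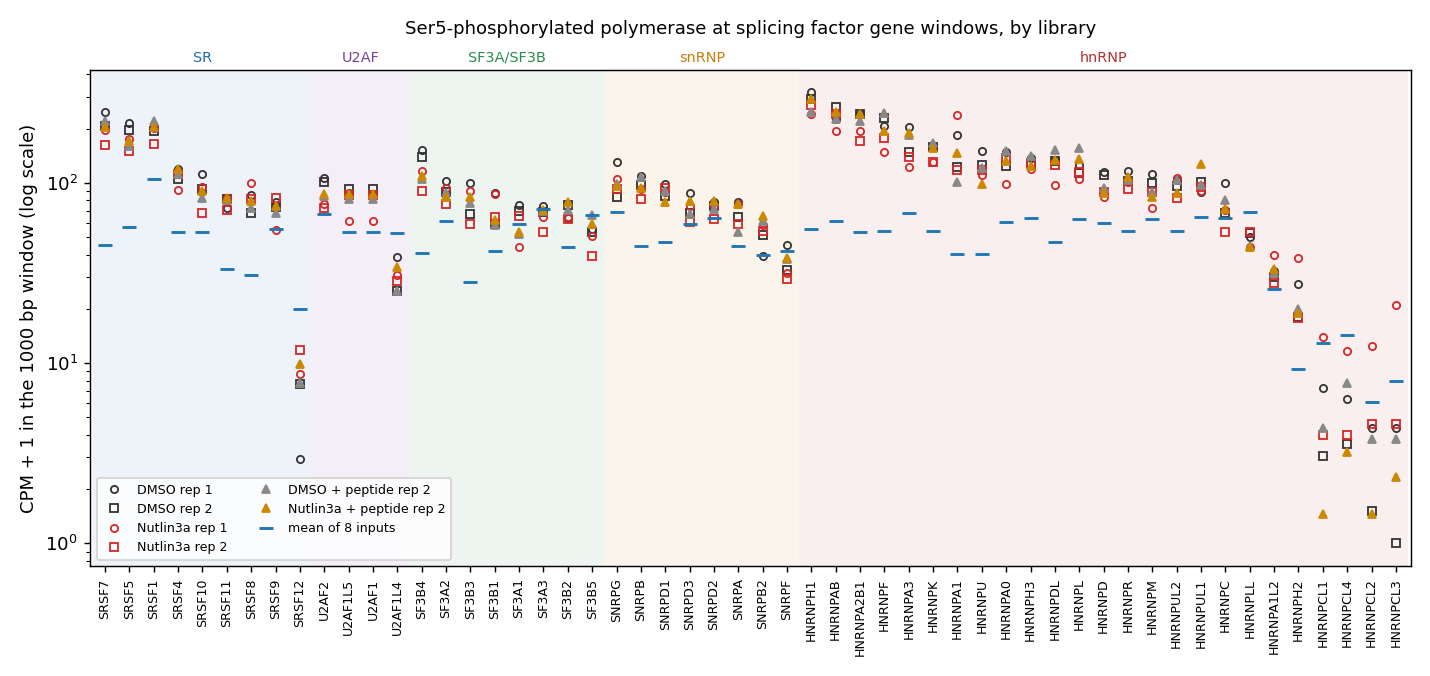
CPM + 1 (log scale) in the 1000 bp window of each of the 54 splicing factor genes, grouped by role, in the 6 ChIP libraries, with the mean of the 8 inputs as a dash. Most members lie between the 53.5 CPM of SF3B5 and the 303 CPM of HNRNPH1 in DMSO, while SRSF12 and HNRNPCL1 to HNRNPCL4 lie lowest, with DMSO means of 1.69 to 4.31 CPM.

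Enrichment over input asked where polymerase was above the chromatin background. In DMSO, 22 of the 50 members tested were higher in ChIP than in input and 0 were lower (edgeR quasi-likelihood, Benjamini-Hochberg adjusted p under 0.05 over 20489 windows). Over all windows 8.55% were higher and 2.62% lower. The 22 were 11 hnRNPs, 5 SR proteins, 3 SF3A and SF3B subunits, U2AF1 with U2AF1L5, and SNRPA. The median log2 fold change over the 50 was 1.48, against 0.065 over all windows, and 48 of the 50 were positive. These values rank windows, since each library is scaled to its own counts in windows. HNRNPCL2, HNRNPCL3, HNRNPCL4 and SRSF12 did not pass the filter on low counts, so this median does not stand for all members. HNRNPF, HNRNPH2, SRSF5 and SRSF11 passed it through the ChIP libraries alone, where they were high, so the calls of HNRNPF and SRSF5 are a description. Among the 46 that also passed through the inputs, 20 were higher and 0 lower.

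HNRNPF, with 424 and 442 counts in ChIP and 0 and 10 in input, had an estimate of 3.61 ± 0.72 (log2, SE), which rests on an input library at 0. HNRNPH1 was at 3.14 ± 0.36 (adjusted p = 0.0121, edgeR), the smallest p of the members, and HNRNPA2B1 with 2.91 ± 0.56 (adjusted p = 0.0221). Of the SR proteins, SRSF5 was at 2.68 ± 0.62, SRSF8 at 2.64 ± 0.51, SRSF7 at 2.45 ± 0.37, SRSF10 at 1.88 ± 0.40 and SRSF4 at 1.83 ± 0.41 (adjusted p = 0.0142 to 0.0337). SF3B2 (2.30 ± 0.52), SF3B3 (2.27 ± 0.54) and SF3A2 (1.70 ± 0.38) passed, while SF3B4, the subunit with the highest level, was at 1.96 ± 0.59 with an adjusted p of 0.0618. The other hnRNPs that passed were HNRNPA1 (2.31 ± 0.42), HNRNPUL2 (2.13 ± 0.43), HNRNPA3 (1.95 ± 0.40), HNRNPAB (1.91 ± 0.34), HNRNPA0 (1.83 ± 0.38), HNRNPU (1.80 ± 0.36), HNRNPDL (1.79 ± 0.37) and HNRNPK (1.77 ± 0.34). SNRPA passed at 1.65 ± 0.45 (adjusted p = 0.0493), and U2AF1 and U2AF1L5, which count nearly the same reads, at 1.68 ± 0.39 each. Below 0 were HNRNPLL at -0.82 ± 0.31 and HNRNPCL1 at -2.22 ± 0.92, neither past the threshold. Inputs were shallow, and the count of calls moved with single libraries: it was 3 without either DMSO ChIP library, 34 without input replicate 1 and 36 without input replicate 2. It was 13 by DESeq2, 1 among windows with a mean count of at least 50, and 9 of the 31 members tested that share bases with no other window. Shares of all windows called with left-out libraries, DESeq2 or that filter are not given here, so these counts describe the members alone.

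**Figure D2:**
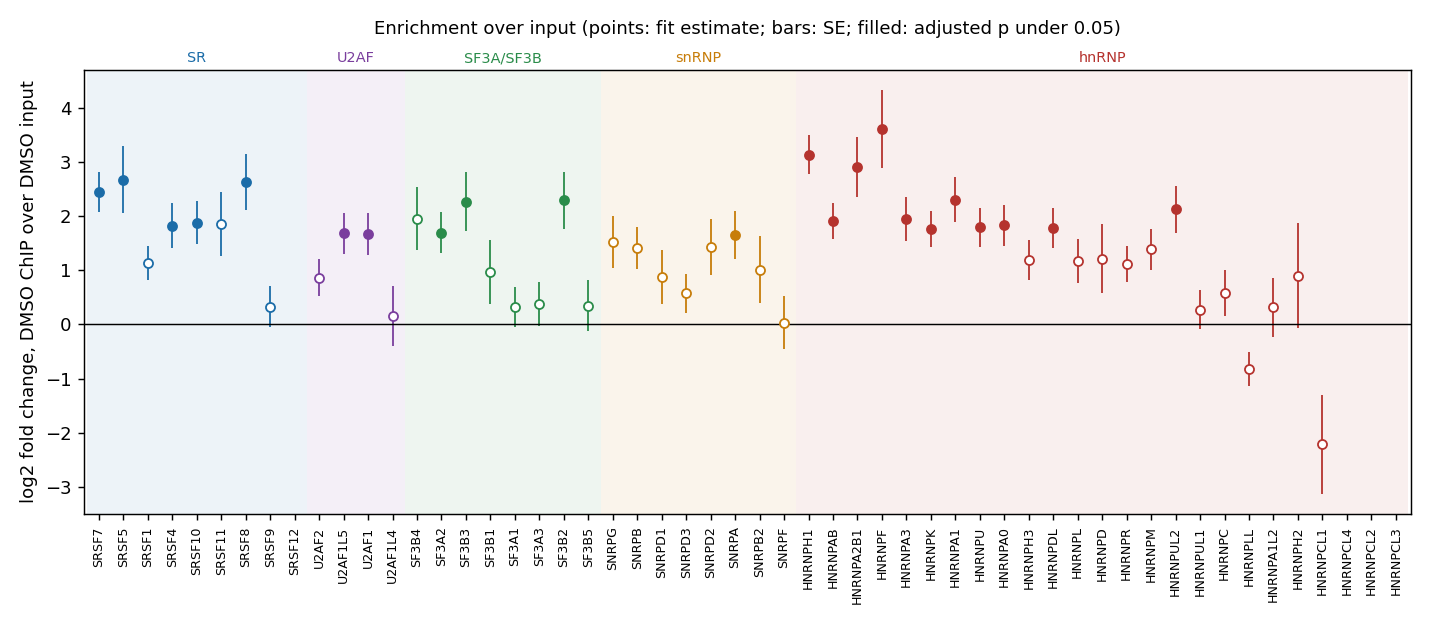
Log2 fold change of DMSO ChIP over DMSO input (edgeR, n = 2 each) for the 50 members tested, grouped by role; points are fit estimates, bars are SE, and filled points have an adjusted p under 0.05. The 22 filled points lie between 1.65 and 3.61, and 2 members lie below 0.

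Under Nutlin3a without peptide, no splicing factor window passed the test. Among the 54 members, 0 were higher and 0 lower than in DMSO (edgeR quasi-likelihood, adjusted p under 0.05), where 0.00772% of the 25901 windows tested were higher and 0% lower. At an unadjusted p under 0.05, 1 member was higher and 2 lower, against 330 and 271 of all windows. DESeq2 and limma-voom also called 0 members. The median log2 fold change was -0.18 against 0.04 over all windows, with 43 members negative and 11 positive, under TMM. It was -0.10 with 38 negative without DMSO replicate 1. With the authors' constants, which move the median of all windows to 0.54, it was 0.34 and 53 members were positive, so the sign rests on the scaling. Relative to the median of all windows it was -0.22 under TMM and -0.20 with those constants. By role the medians under TMM were -0.28 for U2AF, -0.24 for SF3A and SF3B subunits, -0.18 for hnRNPs, -0.13 for SR proteins and -0.13 for snRNP proteins. Of the 95% intervals, 47 of 54 lay within 2-fold in either direction, and the median distance from estimate to limit was 0.48. In simulated data of this design the test recovered 2.99% of windows changed 1.5-fold, 25.4% of those changed 2-fold and 87.9% of those changed 4-fold, so a change of the sizes seen here would rarely be called.

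SF3B4 was at 151 and 138 CPM in DMSO and 115 and 89.4 in Nutlin3a, and at 104 and 108 in DMSO and Nutlin3a with peptide. Both Nutlin3a libraries lay below both DMSO libraries, a log2 fold change of -0.50 ± 0.22 (SE; edgeR adjusted p = 0.982; -0.32 without Nutlin3a replicate 2), and the peptide pair lay with the Nutlin3a values. U2AF2 was at 105 and 99.99 CPM in DMSO, 75.7 and 71.4 in Nutlin3a, and 84.0 and 85.6 with peptide, with a log2 fold change of -0.48 ± 0.21 (adjusted p = 0.982). HNRNPC was at 99.3 and 67.0 CPM in DMSO, 69.6 and 52.2 in Nutlin3a, and 79.0 and 70.9 with peptide. Its groups overlapped, and its estimate was -0.46 ± 0.25 (adjusted p = 0.982), moving to -0.14 without DMSO replicate 1, -0.71 without DMSO replicate 2 and -0.25 without Nutlin3a replicate 2. With the authors' constants the estimates for SF3B4, U2AF2 and HNRNPC were 0.06, 0.04 and 0.09. On the positive side were members with few reads. SRSF12 had a log2 fold change of 1.10 ± 0.72 (0.47 without DMSO replicate 1 and 2.23 without DMSO replicate 2). The window listed for HNRNPCL3, with 7 and 0 counts in DMSO and 26 and 6 in Nutlin3a, had an unadjusted p of 0.0374 (edgeR, adjusted p = 0.982). HNRNPCL2, which shares reads with it, had 7 and 1 counts in DMSO and 15 and 6 in Nutlin3a. Without the 5 members of few reads, 43 of 49 were negative, and SNRPB2, at 38.1 and 50.5 CPM in DMSO and 57.3 and 52.8 in Nutlin3a, had the highest estimate, 0.31.

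**Figure D3:**
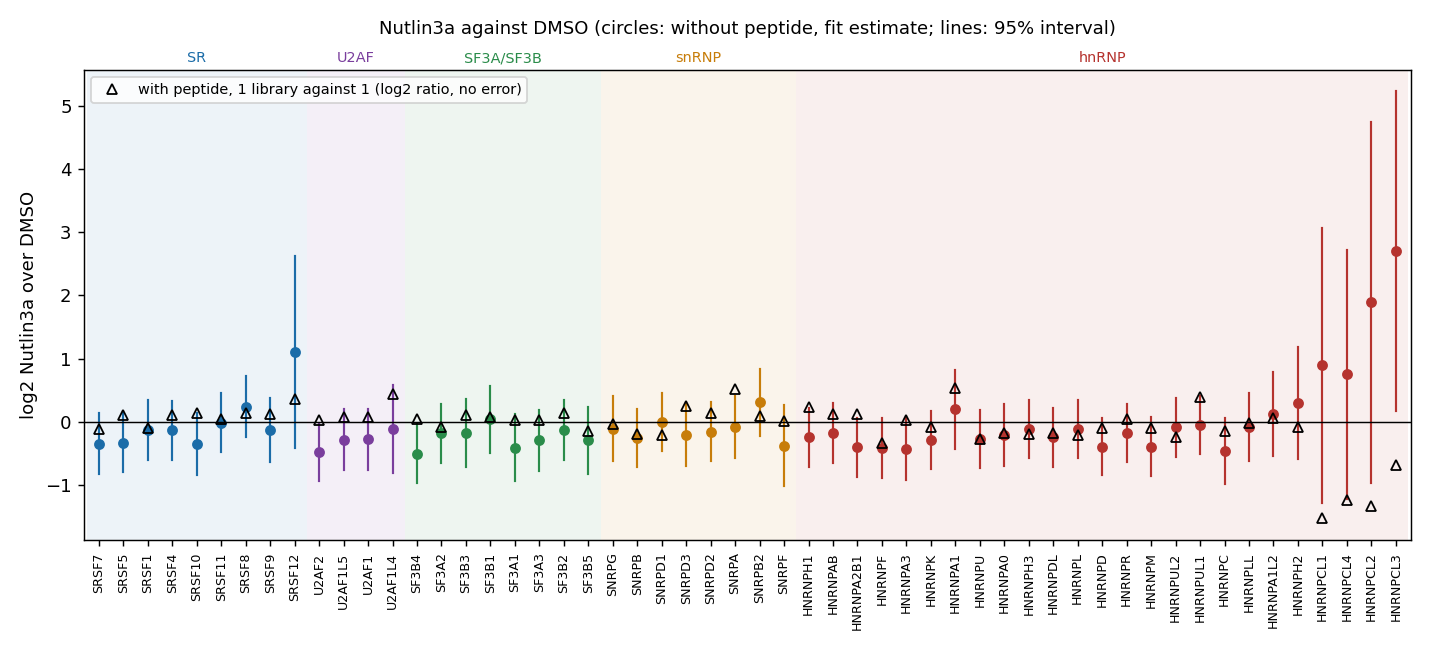
Log2 Nutlin3a over DMSO for each of the 54 members, grouped by role: circles with lines are the fit estimates and 95% intervals without peptide (n = 2 each), and triangles are log2 ratios of 1 library to 1 with peptide, which carry no error. Most circles lie below 0, the triangles lie on both sides, and SRSF12 and HNRNPCL1 to HNRNPCL4 have the widest intervals.

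Counted by library, both Nutlin3a values lay below both DMSO values in 22 of 54 members (40.7%), where 15.7% of all windows tested did so. They lay above both in 4 members (7.41%), where 16.1% of all windows did. The 22 were 11 hnRNPs (HNRNPH1, HNRNPA2B1, HNRNPF, HNRNPA3, HNRNPK, HNRNPU, HNRNPH3, HNRNPDL, HNRNPD, HNRNPR and HNRNPM), SF3B4, SF3A1, SF3A3, SF3B5, U2AF2, U2AF1 with U2AF1L5, SRSF7, SRSF5, SNRPB and SNRPF. Those above were SNRPB2, SRSF12, HNRNPCL2 and HNRNPCL3. The counts below and above were 21 and 4 with DESeq2's size factors, 17 and 5 with total counts, and 0 and 2 with the authors' constants. Level moved with this result. In the decile of tested windows with the highest mean level, which holds 25 of the members, both Nutlin3a values lay below both DMSO values in 44.4%, and the median log2 fold change was -0.21. In the decile below it, with 16 members, these were 32.4% and -0.16, and in the lowest decile 1.04% and 1.21. Members thus stood near other windows of their level, and the part of library quality in the relation to level was not tested.

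**Figure D4:**
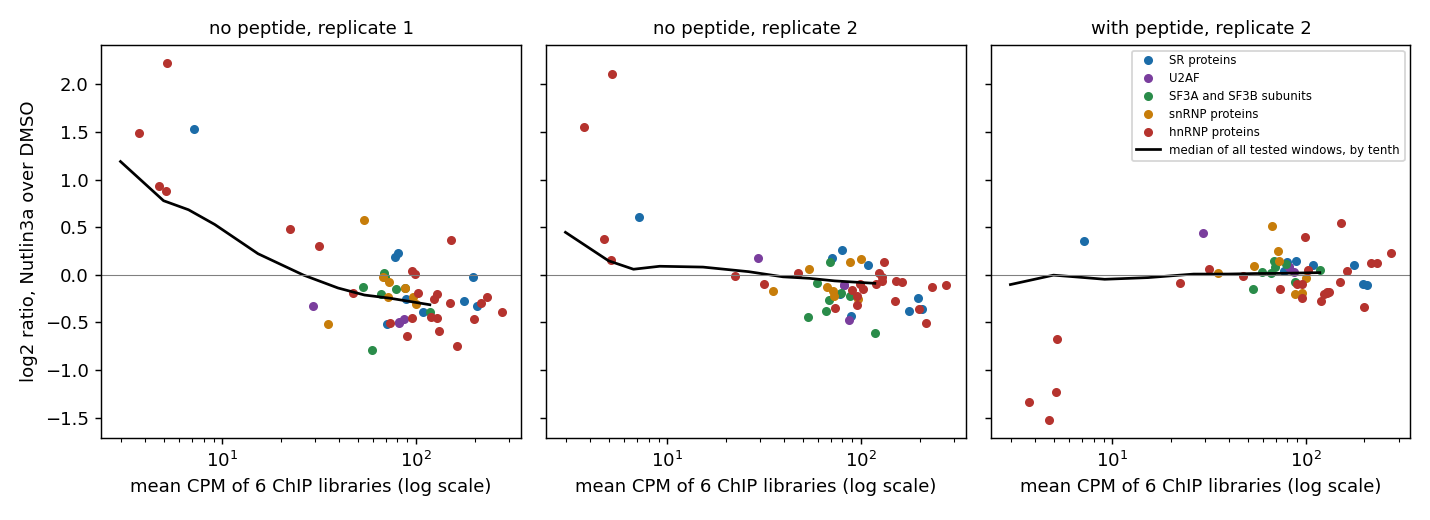
Log2 ratio of Nutlin3a to DMSO against mean CPM of the 6 ChIP libraries (log scale) in replicate 1, in replicate 2 and in the pair with peptide; coloured points are the 54 members by role and the black line joins the medians of all tested windows in each decile by level. The line slopes from 1.19 to -0.32 in replicate 1 and from 0.45 to -0.09 in replicate 2, and runs from -0.10 to 0.02 with peptide, and the members lie around it.

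The replicates differed in size. In replicate 1 the median log2 ratio of Nutlin3a to DMSO over the members was -0.23 (all windows 0.06), and in replicate 2 it was -0.11 (all windows 0.01). Negative ratios were found for 40 and 38 of the 54. Between replicates of the same condition, DMSO replicate 1 over replicate 2 had a median of 0.14 and Nutlin3a replicate 1 over replicate 2 one of 0.16.

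With peptide, Nutlin3a and DMSO were compared as 1 library against 1, with no test. The median log2 ratio over the members was 0.03, with 30 positive and 24 negative. Past 1.5-fold, 0 members were higher and 4 lower, where 10% of all windows tested were higher and 11.4% lower. Among the 49 members with more reads, ratios ran from -0.34 for HNRNPF to 0.54 for HNRNPA1. SNRPA, at 52.1 CPM in DMSO and 74.9 in Nutlin3a with peptide, had a ratio of 0.52. With the authors' constants the median of the 54 was 0.43.

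Whether the response to Nutlin3a differed with the peptide was tested in the same fit. Of 54 members, 0 passed in either direction (edgeR, adjusted p under 0.05), and 0 had an unadjusted p under 0.05, where 107 and 166 of all windows did in the higher and lower direction and 0% were called. The median difference was 0.23 against -0.01 over all windows, with 40 members positive, under TMM. It was 0.16 with 31 positive under total counts and 0.11 with 33 positive under the authors' constants. Among windows of the highest decile by level the median was also 0.23. All 8 SF3A and SF3B windows among the members and all 4 U2AF windows had positive estimates, with medians of 0.28 and 0.44. Of the U2AF windows, those of U2AF1 and U2AF1L5 are close to a single measurement. Estimates were positive for 15 of 25 hnRNPs (median 0.07), 7 of 9 SR proteins (0.24) and 6 of 8 snRNP proteins (0.19). Over all windows 49.1% were positive. SNRPA was at 77.2 and 63.9 CPM in DMSO, 52.1 with peptide, 75.7 and 58.2 in Nutlin3a, and 74.9 in Nutlin3a with peptide. Its DMSO and Nutlin3a values without peptide overlapped, and the difference of responses was 0.61 ± 0.40 (log2, SE; adjusted p = 1, edgeR). SF3B4 had a difference of 0.55 ± 0.39 and U2AF2 of 0.51 ± 0.37, from the values given above. The largest negative estimates were those of HNRNPCL1, HNRNPCL2 and HNRNPCL3, with 1, 1 and 3 counts in Nutlin3a with peptide. Precision was low: 17 of 54 intervals lay within 2-fold, so the values show neither a difference nor its absence. The median was 0.12 without DMSO replicate 1, and 0.07 over the 33 members that share no bases with another window.

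The peptide alone, under DMSO, gave 0 members higher and 0 lower (edgeR, adjusted p under 0.05; 0% of all windows), and 0 at an unadjusted p under 0.05, where 178 windows were higher and 215 lower. Both peptide comparisons set 1 library against 2, and the lone library was assumed to vary like the pairs. The median log2 fold change was -0.08 (all windows -0.02), with 34 members negative, under TMM. It was -0.33 with 47 negative under the authors' constants (all windows -0.25), 0.02 without DMSO replicate 1 and -0.16 without DMSO replicate 2. SF3B4 was at -0.47 ± 0.28 (SE), SF3A1, at 74.7 and 69.1 CPM in DMSO and 51.0 with peptide, at -0.50 ± 0.31, and HNRNPA1, at 184 and 122 in DMSO and 100.2 with peptide, at -0.61 ± 0.37. Without DMSO replicate 1 the estimate for HNRNPA1 was -0.28. In all 3 the peptide library lay below both DMSO libraries, but they were picked by small p, so this only describes them. SNRPB2, at 38.1 and 50.5 CPM in DMSO and 60.5 with peptide, was at 0.45 ± 0.30 (0.26 without DMSO replicate 1). HNRNPL, at 124 and 112 CPM and 155 with peptide, was at 0.38 ± 0.26, and SF3B5, at 54.5 and 52.6 CPM and 65.0 with peptide, was at 0.28 ± 0.29. Here the peptide library lay above both, again in members picked by small p. HNRNPL in Nutlin3a was at 104 and 114 CPM without and 134 with peptide, SF3B5 at 49.7 and 38.4 without and 58.4 with it, and SF3A1 at 42.8 and 64.8 without and 52.2 with it. HNRNPA1 was at 237 and 116 CPM in Nutlin3a and 146 in Nutlin3a with peptide, and SNRPB2 at 64.7 CPM in Nutlin3a with peptide.

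Under Nutlin3a the peptide likewise gave 0 members higher and 0 lower (edgeR, adjusted p under 0.05; 0% of all windows). At an unadjusted p under 0.05, 0 were higher and 1, HNRNPCL1, lower, where 146 and 486 of all windows were. The median was 0.17 (all windows -0.02), with 37 members positive, under TMM, and -0.21 with 5 positive under the authors' constants, which put the median of all windows at -0.34. It was 0.06 without Nutlin3a replicate 2. HNRNPA3 was at 121 and 139 CPM in Nutlin3a and 188 with peptide, 0.53 ± 0.28 (log2, SE; adjusted p = 1), and at 203 and 146 in DMSO and 183 in DMSO with peptide. HNRNPUL1 was at 88.7 and 94.2 CPM in Nutlin3a and 126 with peptide, 0.46 ± 0.26, and at 88.2, 100.5 and 95.8 in DMSO and DMSO with peptide. HNRNPA2B1 had an estimate of 0.40 ± 0.27. In all 3 the peptide library lay above both Nutlin3a libraries, but they were picked by small p, so this only describes them. HNRNPCL1 had 17 and 5 counts in Nutlin3a and 1 in Nutlin3a with peptide, with 13, 4 and 6 in DMSO and DMSO with peptide, too few to compare, as were those of HNRNPCL2 and HNRNPCL3. In each of the peptide comparisons 42 of 54 intervals lay within 2-fold. Comparisons with a shared DMSO or Nutlin3a group are not independent of each other.

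Other genes of the splicing pathway were read from a list of 108, all tested, with further snRNP proteins, PRPF factors, DEAH and DEAD box helicases, LSM proteins and regulators. SRSF2, SRSF3, SRSF6, SNRPA1, SNRPC, SNRPE and SF3B6 are not on this list. None of the 108 passed in the 4 comparisons of ChIP libraries (0 higher and 0 lower in each, edgeR). At an unadjusted p under 0.05, Nutlin3a without peptide gave 1 higher and 2 lower. Results of DESeq2 were read for the families above only. The median log2 fold change of the 108 in that comparison was -0.18 with 28 positive, the same to 2 decimals as that of the families. Over input 23 of the 108 were higher and 0 lower, where 8.55% of all windows tested were higher and 2.62% lower. The median level of the 108 was 68.0 CPM, and 34 of them were in the top decile. LSM3, of the ring on U6 RNA, was at 57.9 and 36.6 CPM in DMSO and 84.1 and 60.6 in Nutlin3a (0.60 ± 0.27; adjusted p = 0.982), in a window that overlaps that of XPC, a DNA repair gene. SLU7 (0.59 ± 0.35) and CRNKL1 (0.56 ± 0.33) had the next smallest p on the positive side. SMNDC1, a relative of SMN, was at 86.3 and 86.6 CPM in DMSO and 66.5 and 57.6 in Nutlin3a (-0.48 ± 0.22). PCBP2, which binds C-rich RNA, was at 135 and 126 against 90.2 and 99.0 CPM (-0.46 ± 0.22), and PRPF38B at 137 and 114 against 90.2 and 92.4 (-0.46 ± 0.22). In the last 3, picked by small p, both Nutlin3a libraries lay below both DMSO libraries, as in 15.7% of all windows tested.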

How the data were processed

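ChIP-seq for Ser5-phosphorylated polymerase II (6 libraries) and input (8) of HCT116 cells was read as raw counts in 1 window per gene, as deposited by the authors on hg38, per the submitters' processing notes. Which aligner, counter and filters were used is not given in the sources used here. A scaled signal, deposited per the file headers, equalled the count times 1 constant per library (0.595 to 1.82). How the constants were derived is not stated, so they served only as another scaling.

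Groups came from sample titles. Counts were tested over all windows with edgeR 4.0.16 in R 4.3.3 (quasi-likelihood, filterByExpr with minimum count 10, TMM, Benjamini-Hochberg threshold 0.05) with 4 group means fitted jointly over the 6 ChIP libraries (2 residual and 14.7 prior degrees of freedom, biological coefficient of variation 26.0%). All 54 members of 28159 windows were among the 25901 that passed the filter. ChIP over input used the 2 DMSO ChIP and 2 DMSO input libraries, where 50 members passed. Errors of fold changes are standard errors, and log2 ratios used a prior count of 2. DESeq2 1.42.0, voom of limma 3.58.1, other scalings and filters, a block on replicate number and left-out libraries were the alternatives. The test was checked on simulated data over 24528 windows.

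Members, gene lists and tests were chosen with earlier results of these data known. The members given by library were the 4 highest and 2 lowest in DMSO and, in each comparison, the 3 with the smallest p on each side of 0. The 3 highest and other printed promoters were picked after values were seen, as were alternatives restricted to replicate 2, to members with a mean count of at least 20, and to other scalings of the count of separated members. Some items are not reported here.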

Additional observations from a re-analysis of the deposited data

Results flagged for a closer look

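The members' median log2 ratio of Nutlin3a to DMSO was -0.23 in replicate 1 and -0.11 in replicate 2 without peptide, and 0.0307 in the single pair with peptide. It was noted because both pairs without peptide lie on one side of 0 and the pair with peptide on the other. The difference between these medians was not tested, the scaling sets their position relative to 0, and the pair with peptide has no replicate.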

How the results depend on the processing

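In the 4 comparisons of ChIP libraries, 0 members passed the threshold in either direction under every alternative run (other scalings, filters and tools, the replicate block, each DMSO and Nutlin3a library without peptide left out in turn). Neither peptide library was left out, since each is the whole of its group. With the authors' constants the sign did change for the uncalled medians of Nutlin3a without peptide and of the peptide under Nutlin3a. It also changed for SF3B4, U2AF2 and HNRNPC under Nutlin3a, with the values given above. The medians of the difference of responses and of the peptide under DMSO kept their sign. That of the peptide under DMSO turned positive with the replicate block and without DMSO replicate 1. Over input, the 22 members higher became 13 with DESeq2, 1 with a mean count of at least 50 (where 1 was lower), 4 with the replicate block and 9 of those that share no bases with another window. Leaving out 1 library gave 3 to 36 higher and 0 to 2 lower. These counts describe the members alone, without the share of all windows called under the same setting. Labels do not say that a replicate number marks a shared batch, and there are only 2 pairs without peptide, so the block was kept as an alternative. Deviations of the same number correlated at 0.454 over 25901 windows and 0.765 over the members. The latter includes HNRNPCL1 to HNRNPCL4, with few counts and log2 ratios of replicate 1 to 2 of 0.80 to 2.04 in DMSO and 1.42 to 2.16 in Nutlin3a. Among the 49 members with more reads these ran from -0.40 to 0.65 and from -0.60 to 1.11. A correlation without the members of few reads was not computed. With the block, windows of the whole table called higher under Nutlin3a went from 2 to 39. Where windows needed a mean count of 50, the members' median over input was 0.764, and those of Nutlin3a without peptide, the difference of responses and the peptide under Nutlin3a were -0.05, 0.12 and 0.09. The median of the peptide under DMSO was 0.04 with the block and 0.02 in replicate 2 alone, and the estimate for HNRNPA1 there was -0.17 with the block. Depth limits the inputs, with 161719 to 359276 counts, and the 5 members with a mean count under 20. The 1000 bp windows were fixed by the authors, so other widths were not tried.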
